A study of Mus musculus with 50 samples.

Results

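The proteasome subunit genes are the rows of the expression table whose symbol begins with Psm, a letter from a to g and a digit. The rule found 48 of 11879 gene rows. Of these, 34 encode subunits of the 26S proteasome, 7 encode assembly chaperones, 5 encode activators or regulators, and Psma8 encodes an alpha subunit known from testis. The last, Psmc3ip, is a partner of meiotic recombination proteins that carries the name of an ATPase subunit and is not itself a subunit. It is accounted for below but enters no subunit group. The rule is by name and used no measured value.

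The series held 50 single mouse cells of 1 group, named iRunx1-iHECs. They are induced hemogenic endothelial cells, an endothelial cell type from which blood cells arise, made in culture from embryonic stem cells of C57BL/6 background. The stem cells carried a doxycycline-inducible Runx1 cassette in the Rosa26 locus, so every cell carried the same transgene, and cells without it were not analysed here. In the paper's protocol doxycycline and cytokine-conditioned medium were added during differentiation, before the cells were sorted. The cells were sorted as CD31+CD41lowCD45-c-kit+CD201high, which selects endothelial cells with early blood markers and without the leukocyte antigen CD45. The labels name no culture or animal, so the 50 cells are 1 sample and no test between groups was possible. Each cell is named by both numbers in its title, as in cell 4-6. What those numbers stand for is not stated, and the first takes 4 values.

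The proteasome is the protease that degrades proteins tagged with ubiquitin. Its 20S core is a barrel of alpha rings, which gate entry, around beta rings, of which 3 beta subunits per ring cut peptide bonds. A 19S cap binds each end of the barrel. The base of the cap holds a ring of ATPases that unfold substrates, and the lid holds the enzyme that removes ubiquitin. In blood cells and in cells exposed to interferon gamma, the catalytic subunits Psmb5, Psmb6 and Psmb7 can be replaced by Psmb8, Psmb9 and Psmb10, which gives the immunoproteasome and changes the peptides made for display on MHC class I.

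Values are TPM, transcript abundance per length on a common total for each cell, so levels of different genes can be set side by side. TPM keeps no sequencing depth, and a value of 0 is described only as listed at 0. The level taken for expression was TPM above 1. The number of genes above it had a median of 6223.5 per cell, was lowest in cell 4-6 at 2400, where the next lowest cell had 4326, and reached 8615. All 9 endothelial genes examined were above TPM 1 in at least 45 cells, as were 19% of all rows, whereas the leukocyte gene Ptprc, which encodes CD45, was listed at 0 in every cell. Erythroid and mesenchymal genes with a row, 5 and 6 in number, were each above TPM 1 in at most 5 cells. No pluripotency gene of the list had a row, so their levels are not known here. Of 10 leukocyte genes with a row, 2 were above TPM 1 in at most 5 cells, Ptprc among them, and 2 reached 45 cells, Laptm5 with 48 and Lcp1 with 49, near the share over all rows. Between these lay Fcer1g with 41 cells, Tyrobp with 27, Sfpi1 with 24 and Coro1a with 21, with highest values between 1690 and 3843 TPM, and Cd53 and Rac2 with 10 each.

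Among genes under the name rule, constitutive 26S transcripts were found in nearly every cell, and the 20S core stood above the 19S cap. All 31 constitutive 26S genes, 14 of the core, 9 of the base and 8 of the lid, were above TPM 1 in at least 45 of the 50 cells, and 18 of them in all 50. Over all members, 34 of 48 reached 45 cells, against 19% of all rows of the table, and 20 of 48 were above TPM 1 in all 50 cells, against 7.15% of all rows. The median TPM was above 100 for all 31 constitutive 26S genes and for 34 of 48 members, against 13.2% of all rows. The median over members of the median TPM was 208, and over the 31 constitutive 26S genes it was 300, compared with 3.49 over all rows with any value above 0. In 36 cells all 31 genes were above TPM 1. In 7 cells 1 of them was not. The cells with the fewest were 1-9 and 4-6, with 27 each, and 4-2, with 28. These cells had 4445, 2400 and 4955 genes above TPM 1, all under the median cell.

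**Figure D1:**
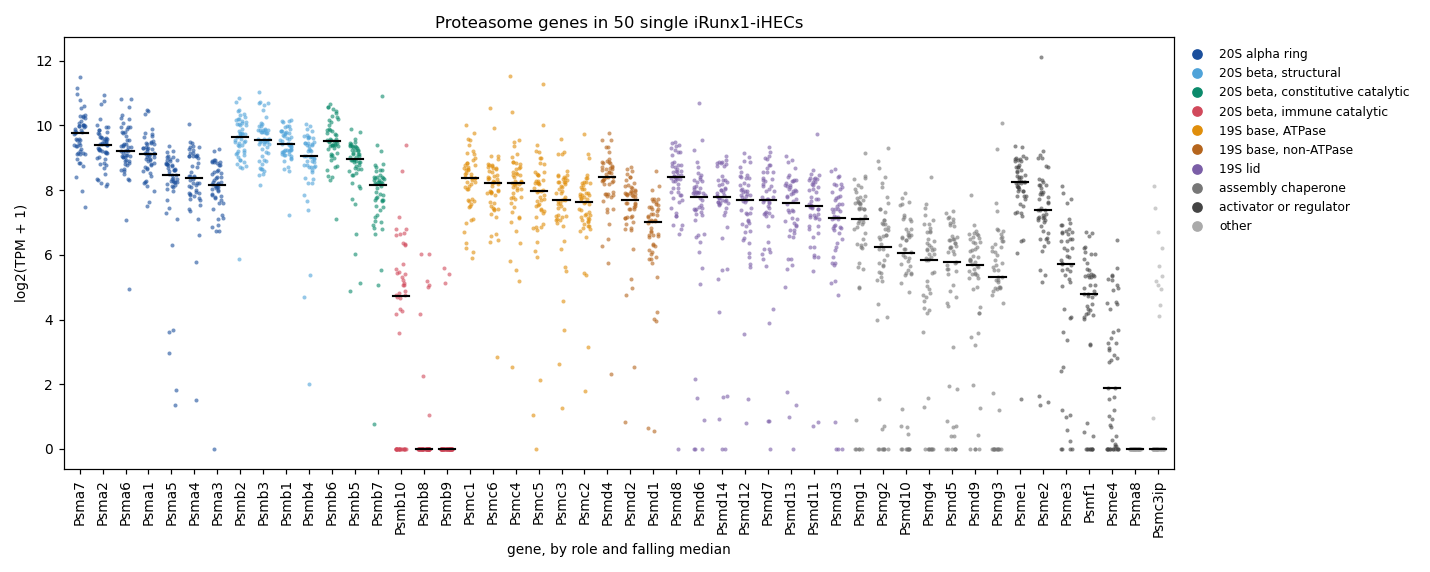
Level of each of the 48 genes in 50 single cells. The vertical axis gives log2(TPM + 1), each point is 1 cell, a black bar marks the median over cells, and colour gives the role. The 14 constitutive core genes, with medians between 285 and 875 TPM, stand above most base and lid genes, and Psmb8 and Psmb9 are at 0 in most cells.

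The 7 alpha ring genes had median levels from 287 TPM for Psma3 to 875 TPM for Psma7, a ratio of 3.05. Psma7 was between 177 and 2887 TPM in the 50 cells. Psma3 was listed at 0 in 1 cell and reached 622 TPM. Psma2 never fell under 280 TPM and Psma1 never under 179 TPM, with medians of 677 and 553 TPM. Psma6 had a median of 595 TPM and its lowest value, 30.05 TPM, in cell 2-12. Psma5 had a median of 356 TPM and was above 100 TPM in 44 cells, with its lowest value, 1.58 TPM, in cell 2-12 as well. It varied most of the alpha ring, with an SD of 1.86 on the log2(TPM + 1) scale. Psma4 had a median of 334 TPM and ran from 1.83 to 1048 TPM. The ranges of Psma7 and Psma3 overlapped, between 177 and 622 TPM.

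The 4 structural beta genes lay closer together, from 526 TPM for Psmb4 to 803 TPM for Psmb2, with a median of 718 TPM. Psmb2 ranged from 57.5 to 1835 TPM. Psmb4 ranged from 2.99 to 1054 TPM. Psmb3 had a median of 753 TPM, was never under 282 TPM and passed 1000 TPM in 11 cells. Psmb1, another structural beta gene, was between 150 and 1151 TPM with a median of 682 TPM, and varied least of all expressed members.

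The cap genes under the name rule were lower. The 6 ATPases of the base had medians from 196 TPM for Psmc2 to 332 TPM for Psmc1. Psmc1 was the steadiest of them, between 58.7 and 1034 TPM, and was above 100 TPM in 46 cells. Psmc6 and Psmc4 had medians close to it, at 300 and 297 TPM, and Psmc5 and Psmc3 were at 249 and 207 TPM. Psmc5 was listed at 0 in 1 cell and reached 2493 TPM in another. The 3 non-ATPase base genes ran from 128 TPM for Psmd1, the large scaffold of the base, to 337 TPM for Psmd4, a receptor for ubiquitin chains, with Psmd2 at 207 TPM. The 8 lid genes ran from 141 TPM for Psmd3 to 336 TPM for Psmd8. Psmd14, which encodes the deubiquitinase of the lid, had a median of 219 TPM and was listed at 0 in 2 cells. Psmd6, with a median of 221 TPM, and Psmd3 were each above TPM 1 in 46 cells, the fewest of the constitutive 26S genes. The lid genes Psmd12, Psmd7, Psmd13 and Psmd11 had medians of 208, 207, 194 and 180 TPM. None of these 8 lid genes was above TPM 1 in all 50 cells, against 12 of 14 core genes and 6 of 9 base genes. The median over genes was 574 TPM for the core, 249 TPM for the base and 208 TPM for these lid genes. The lid subunit Shfm1, outside the name rule, was not counted here. It was above TPM 1 in all 50 cells, with a median of 751 TPM.

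Within single cells the core stood above the cap. The mean TPM per core gene was above the mean per base and lid gene in 50 of 50 cells, and the ratio had a median of 2.34. Base and lid had no such fixed order, with the mean per base gene above the mean per lid gene in 32 cells and below it in 18. The lowest ratio was 1.28, in cell 2-6, where the ATPase gene Psmc5 was at 2493 TPM and its next highest cell was at 1037 TPM. The highest was 5.06, in cell 2-13, where Psmb7 was at 1905 TPM against 669 TPM in the next cell. That cell also had the lowest lid sum of the 50, 582 TPM, with Psmc5 and Psmd3 listed at 0. Without the named gene, a choice made after seeing the data, the ratio was 1.92 in cell 2-6 and 4.49 in cell 2-13.

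Core and cap genes also differed in transcript length, which had a median of 937 bases for the core and 1591 bases for the base and lid in the GENCODE annotation. Across the 31 genes the median TPM and the transcript length had a Spearman rho of -0.62, but it was -0.20 within the 14 core genes and -0.53 within the 17 base and lid genes. Across the 7099 rows with a length and a median above 0 the rho was -0.47. Genes are not independent replicates, so these values are a description. Among genes of 1100 to 1700 bases, 4 core genes had a median of 345 TPM, between 285 and 526 TPM, and 11 base and lid genes had a median of 221 TPM, between 180 and 337 TPM. The core was higher by median there, with overlapping ranges. The part of length in the difference was not tested.

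**Figure D2:**
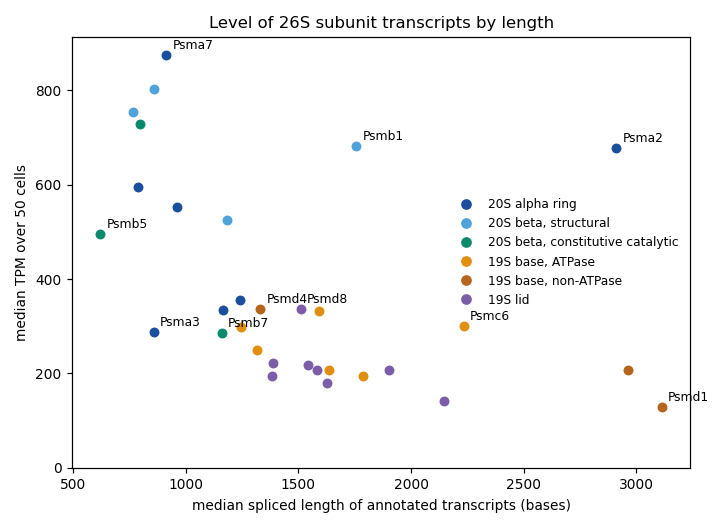
Median TPM over 50 cells (vertical axis) against the median spliced length of the annotated transcripts in bases (horizontal axis) for the 31 constitutive 26S genes, coloured by role. Most core genes are at the upper left, at a median length of 937 bases, and base and lid genes lie lower and further right, while Psma2 and Psmb1 are long and high.

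The summed TPM of the 34 26S genes, immune subunits included, had a median of 13287 per cell, or 1.39% of the TPM in the table. It was lowest in cell 4-1 at 6307 and highest in cell 1-1 at 18429, a ratio of 2.92. The medians by first title number lay between 12307 and 13742, well inside the range over cells. Summed core TPM had a median of 8666, summed base TPM 2373 and summed lid TPM 1860. The core sum varied little with the number of genes above TPM 1 per cell, with a rho of 0.12 over the 50 cells, whereas the lid sum had a rho of 0.61. Cell 4-6 had the fewest genes above TPM 1 and the highest base sum, 5827 TPM, with Psmc4 alone at 2977 TPM. These are correlations over cells of 1 sample, given as a description.

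**Figure D3:**
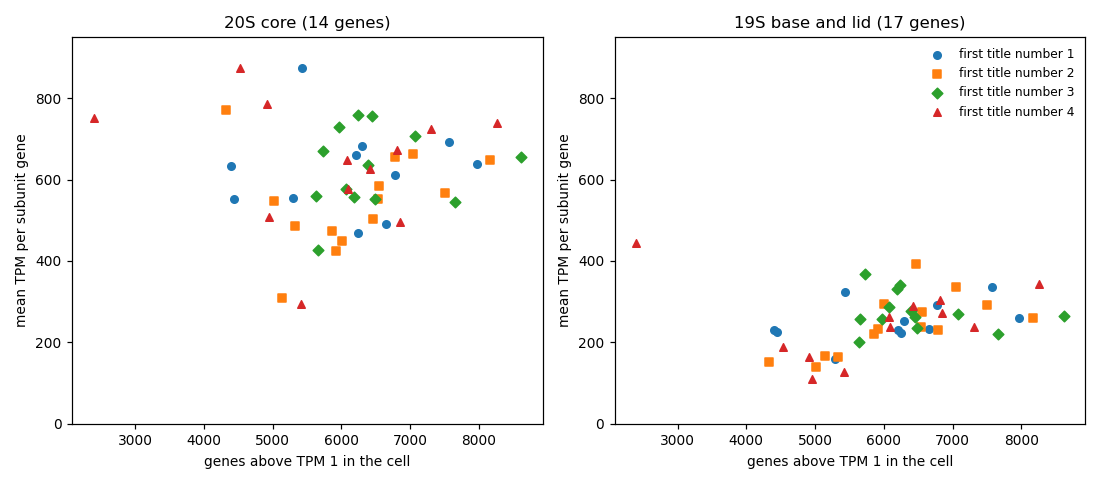
Mean TPM per gene of the 14 constitutive core genes (left) and the 17 base and lid genes (right) in each of 50 cells, against the number of genes above TPM 1 in that cell. Marker shape gives the first title number. Core values lie between 295 and 874 TPM and cap values between 111 and 445 TPM, and the cell with 2400 genes above TPM 1 has the highest cap value.

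Among the catalytic subunits of the core, constitutive and immune genes are set side by side below. Psmb5 encodes the chymotrypsin-like activity and is the main target of bortezomib. It lies on GRCm38 chromosome 14 from 54614119 to 54618022, minus strand. Psmb6, for the caspase-like activity, lies on chromosome 11 from 70525367 to 70527858, plus strand, and Psmb7, for the trypsin-like activity, on chromosome 2 from 38588036 to 38644087, minus strand. The immune counterparts Psmb8 and Psmb9 are neighbours in the MHC region of chromosome 17, from 34197721 to 34201454 on the plus strand and from 34181987 to 34187764 on the minus strand. Psmb10 is on chromosome 8 from 105935735 to 105938444, minus strand.

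Stretches upstream of the annotated exons are shown for 1 pair of highly expressed constitutive genes and for Psmb10, the immune gene found in most cells. They come from the RefSeq promoter windows on GRCm38.p6, are written 5′ to 3′ on the strand of the gene, and are limited to bases outside any GENCODE exon. Capitals mark the letters TGACNNNGC, the core of the antioxidant response element, and CCGCCC, which is the GC box GGGCGG read on the other strand.
Psmb5, chr14:54618023-54618245, minus strand: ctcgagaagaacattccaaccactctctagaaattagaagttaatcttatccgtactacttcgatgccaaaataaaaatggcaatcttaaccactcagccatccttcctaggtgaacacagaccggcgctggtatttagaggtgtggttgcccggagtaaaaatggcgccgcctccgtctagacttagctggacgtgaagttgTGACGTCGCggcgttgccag
Psmb6, chr11:70525107-70525356, plus strand: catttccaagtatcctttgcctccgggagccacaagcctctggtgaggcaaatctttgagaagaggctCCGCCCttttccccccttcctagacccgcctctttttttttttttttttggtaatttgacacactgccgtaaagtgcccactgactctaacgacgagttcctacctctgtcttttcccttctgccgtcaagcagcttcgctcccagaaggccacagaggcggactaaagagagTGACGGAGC
Psmb10, chr8:105938445-105938642, minus strand: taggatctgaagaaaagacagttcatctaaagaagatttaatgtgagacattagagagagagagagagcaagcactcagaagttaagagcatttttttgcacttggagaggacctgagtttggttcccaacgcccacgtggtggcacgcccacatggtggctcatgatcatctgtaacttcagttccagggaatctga

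Motif letters were searched on both strands in the 250 bases before the RefSeq start, with 1 window for each of 40 members and of 27025 genes. TGACNNNGC was in 5 of 40 members, Psmb5, Psmb6, Psmc6, Psmd12 and Psmd9, which is 12.5% against 10.1% of all genes. The GC box GGGCGG was in 22 of 40 members, 55% against 32.9% of all genes, and CCAAT in 14 of 40, 35% against 34.5%. The core of the interferon-stimulated response element was in 3 members, none of them an immune subunit, or 7.5% against 3.04%. The gamma-activated site TTCNNNGAA was in Psmb8 and Psmg1 only, 5% against 7.18%. A match is a match of letters and was not tested as a binding site.

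Constitutive catalytic transcripts exceeded immune catalytic transcripts in every cell. The mean log2(TPM + 1) of Psmb5, Psmb6 and Psmb7 was above that of Psmb8, Psmb9 and Psmb10 in 50 of 50 cells, with a median difference of 7.12. The smallest difference was 2.68, in cell 4-10, and the largest 9.24, in cell 1-7. Medians by first title number lay between 6.68 and 7.87. These are differences on the log2(TPM + 1) scale, which depends on the pseudocount where the immune genes are listed at 0.

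Psmb5 had a median of 496 TPM and ranged from 28.2 TPM in cell 4-1 to 939 TPM in cell 4-4. Psmb6 had a median of 728 TPM, from 136 TPM in cell 2-12 to 1637 TPM in cell 3-14. Psmb7 had a median of 285 TPM, from 0.71 TPM in cell 4-2 to 1905 TPM in cell 2-13. Psmb5 and Psmb6 were therefore above TPM 1 in all 50 cells and Psmb7 in 49.

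The 3 immune subunits differed among themselves. Psmb10 was above TPM 1 in 31 of 50 cells, or 62% (exact 95% interval 47.2 to 75.3, which here and below covers counting error over cells only). It was listed at 0 in the other 19, with no value between 0 and 11.0 TPM. Where it was above TPM 1 its median was 41.7 TPM, which was 17.5% of the Psmb7 level of the same cell by median, and it passed 100 TPM in 6 cells. Psmb8 was above TPM 1 in 8 cells, 16% (7.17 to 29.1), at values from 1.06 to 64.4 TPM. Psmb9 was above TPM 1 in 3 cells, 6% (1.25 to 16.5), at 33.9, 41.4 and 46.8 TPM.

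By pairs that hold the same place in the beta ring, Psmb5 was above Psmb8 and Psmb6 above Psmb9 in 50 of 50 cells, with median differences of 8.91 and 9.47 on the log2 scale. Psmb7 was above Psmb10 in 48 cells, with a median difference of 3.504. Psmb10 was the higher in cell 1-1, at 669 TPM against 443 TPM for Psmb7, and in cell 2-15, at 99.97 TPM against 45.2 TPM. In both cells Psmb8 and Psmb9 were listed at 0.

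No immune subunit was above TPM 1 in 17 cells, 1 was in 26 cells, 2 were in 5 cells and all 3 were in 2 cells, 4-10 and 4-7 (4% of cells, exact 95% interval 0.488 to 13.7). In cell 4-10 Psmb8 was at 64.4, Psmb9 at 46.8 and Psmb10 at 383 TPM. In cell 4-7 they were at 63.7, 33.9 and 110 TPM. These cells had 8259 and 6816 genes above TPM 1, both over the median cell. Of the 11 cells in which Tap1 was above TPM 1, the peptide transporter gene next to Psmb9, these were 2, at 11.8 and 75.1 TPM, and 3 others had Psmb8 above TPM 1.

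Immune subunits made up a median of 1.71% of the summed TPM of the 6 catalytic genes. The share was under 1% in 21 cells and over 10% in 4. It reached 22.3% in cell 1-1 and 18.7% in cell 4-10, and most of the immune share in these cells was Psmb10. Psmb10 was above TPM 1 in 50% to 69.2% of the cells of each first title number.

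**Figure D4:**
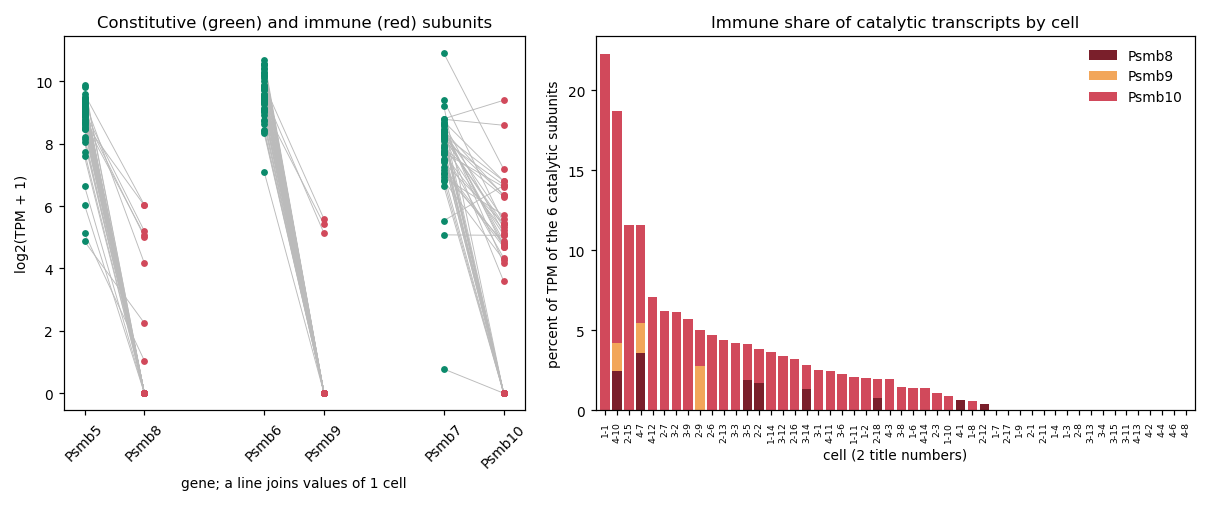
Left, log2(TPM + 1) of each constitutive catalytic gene (green) and its immune counterpart (red) in 50 cells, with a line for each cell. Right, percent of the summed TPM of the 6 catalytic genes taken by Psmb8, Psmb9 and Psmb10 in each cell, in falling order. The lines fall in every cell for the first pairs and rise in 2 cells for Psmb7 and Psmb10, and 4 cells exceed 10% at the right.

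Genes that act around the immunoproteasome were described by the same counts, beside the 19% of all rows above TPM 1 in at least 45 cells. Of 11 MHC class I pathway genes with a row, 6 reached 45 cells, a higher share. These were B2m, H2-D1, H2-K1, Calr, Pdia3 and Canx. B2m, the light chain of MHC class I, had a median of 1842 TPM, H2-D1 210 TPM and H2-K1 194 TPM. The peptide transporter genes Tap1 and Tap2 were above TPM 1 in 11 and 13 cells. Tapbp, Erap1 and Tapbpl were so in 37, 19 and 4 cells. Of 15 interferon pathway genes, 2 reached 45 cells, a share near that of all rows. Irf1, a transcription factor of the interferon response, was above TPM 1 in 20 cells, while the interferon-induced gene Isg15 was in 5 and Irf7 in 2. The interferon gamma receptor gene Ifngr1 had a median of 116 TPM. Over the 50 cells Psmb10 had a rho of 0.31 with the mean log2 level of the constitutive 26S genes, and its rho with genes per cell was 0.19. Its rho with the mean log2 level of the MHC class I list was 0.29, with that of the interferon list 0.05 and with that of the leukocyte list, whose summed level ranged from 20.6 to 7423 TPM, 0.07.

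Assembly chaperones had lower medians than most subunits. Of the 7, 1 was above TPM 1 in at least 45 cells, Psmd9, at exactly 45, a share near the 19% of all rows. Their medians ran from 38.5 TPM for Psmg3 to 136 TPM for Psmg1. Psmg1 and Psmg2, which form a pair that assembles the alpha ring, were above TPM 1 in 44 and 41 cells, and Psmg3 and Psmg4, which form another, in 39 and 42. The base chaperones Psmd5 and Psmd10 were each above TPM 1 in 39 cells. Cell 4-12 held the highest value of Psmg1, Psmg2 and Psmg3, at 572, 635 and 1076 TPM, while Psmg4 there was at 1.95 TPM. Over all cells the rho was 0.31 for Psmg1 with Psmg2 and 0.25 for Psmg3 with Psmg4.

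Among activators, Psme1 and Psme2, which together form the interferon-inducible PA28 ring, were above TPM 1 in all 50 cells, with medians of 301 and 165 TPM. Psme2 stood at 4452 TPM in cell 2-12, where its next highest cell was at 587 TPM. Psmd6 was also highest in that cell, at 1659 TPM, and Psmb6 lowest. Psme1 and Psme2 had a rho of 0.32 with each other, and Psmb10 had a rho of 0.13 with Psme1 and of 0.00 with Psme2. The nuclear activator Psme3 had a median of 52.1 TPM and was above TPM 1 in 43 cells. Psme4, a large activator of the core, had a median of 2.68 TPM and was above TPM 1 in 30 cells. The regulator Psmf1 had a median of 26.7 TPM and was above TPM 1 in 39.

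Psma8 was listed at 0 in all 50 cells, which by 3 counts of 50 allows a share of up to 6% of such cells listed above 0 and sets no limit on cells that express it below detection. Psmc3ip was above TPM 1 in 11 cells, reached 281 TPM and was listed at 0 in 38. Members that the rule would also cover but that have no row, Psmb11 and Psme2b, were not analysed here.

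Of 13 genes with a row from a list of other proteasome parts, partners and regulators outside the name rule, 9 were above TPM 1 in at least 45 cells, against 19% of all rows, and the median over the 13 of the median TPM was 83.0, below the members. Levels within the list ran from 0.087 TPM for Ddi2, a protease that processes Nfe2l1, to 751 TPM for Shfm1. Shfm1 is the small lid subunit also called Sem1, and Pomp, the maturation protein of the core, had a median of 737 TPM. Adrm1, a ubiquitin receptor of the base, had a median of 171 TPM. Of the transcription factors that act on proteasome genes, Nfe2l1 had a median of 27.1 TPM and was above TPM 1 in 40 cells, and Nfe2l2 had a median of 128 TPM. The ubiquitin genes Ubb and Rps27a had medians of 1642 and 1468 TPM, each above the median of every subunit.

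Spread from cell to cell was smallest for the core, larger for the base and largest for the 8 lid genes under the name rule. The SD of log2(TPM + 1) over the 50 cells had a median of 0.84 over core genes, 1.35 over base genes and 2.02 over lid genes. It was 1.35 over the 31 constitutive 26S genes and 1.41 over the 1118 rows in the same range of mean level. Over all rows it was 1.92, and with the immune subunits included the 34 26S genes were at 1.36. That value of 1.36 depended on the cells included. With the cells of 1 first title number left out it lay between 1.01, without number 4, and 1.49, without number 3. Without the 7 cells with fewer than 5000 genes above TPM 1 it was 1.05. The order of core, base and lid was not tested without these cells. The smallest SDs among expressed members were 0.51 for Psmb1, 0.62 for Psma2, 0.63 for Psma1, 0.65 for Psmb3 and 0.68 for Psmb6, all core genes. The largest were 2.96 for Psmb10, 2.79 for Psmg2, 2.78 for Psmg3, 2.75 for Psmd10 and 2.61 for Psmd5.

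In the range of these genes the spread of rows was lower at higher levels, so each constitutive 26S gene was also set beside rows within 0.5 of its mean log2 level. Of the 31 genes, 16 had an SD under the median of those rows, and the median difference was -0.0057. That count was 7 of 14 for the core, 7 of 9 for the base and 2 of 8 for the lid. Beside rows of like level, then, about as many 26S genes varied less as varied more, and lid genes mostly varied more.

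**Figure D5:**
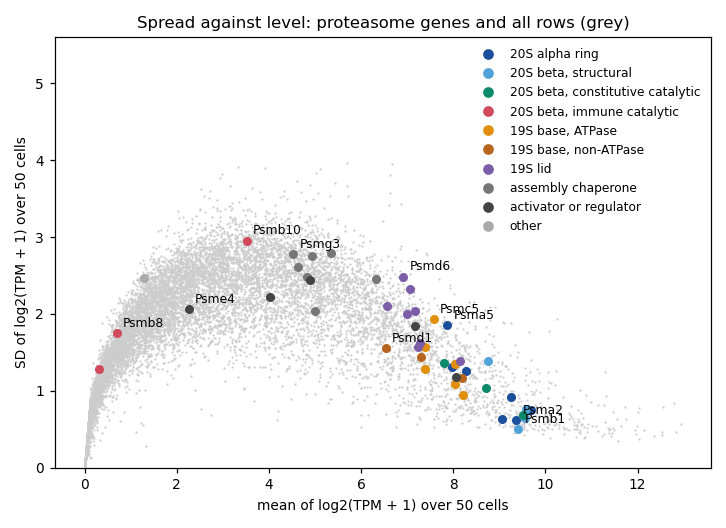
SD of log2(TPM + 1) over 50 cells (vertical axis) against its mean (horizontal axis) for all rows (grey) and for the members with any value above 0 (coloured by role). Core genes lie at the lower right, down to an SD of 0.51 for Psmb1, lid genes between SDs of 1.38 and 2.49, and Psmb10 at 2.96 near the top of the cloud.

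Levels of 26S genes were weakly correlated over cells. Over the 465 pairs of the 31 constitutive genes the median Spearman rho was 0.15, from -0.28 for Psmd4 with Psmb3 to 0.54 for Psmd7 with Psma5, and 82.2% of pairs were above 0. Over pairs of the 1118 rows of like level the median was 0.02 and 55.4% were above 0. Given the number of genes above TPM 1 per cell, the median partial rho was 0.10 for the subunits and 0.02 for those rows. Median rho was 0.19 within the core, 0.18 within the base, 0.18 within the lid and 0.12 between core and cap genes. Within the lid it fell to 0.05 given the number of genes. The core sum and the base and lid sum had a rho of 0.35. The points are 50 cells of 1 sample with unknown depth, and the values are a description.

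Rows most like the mean level of the 26S genes over the 50 cells, among 11317 rows outside the rule, were Ywhab (rho 0.69), Phkb (0.67), Pold2 (0.67), Vcp (0.66), Nasp (0.65), Ywhaq (0.64), Prpf31 (0.63), Acadvl (0.62), Gm3435 (0.62) and Ndufa10 (0.61). Given the number of genes above TPM 1, the partial rho of these 10 lay between 0.36 for Prpf31 and 0.58 for Phkb. Ywhab and Ywhaq encode 14-3-3 proteins, and Vcp encodes the ATPase that extracts ubiquitylated proteins for degradation. For the mean level of the 26S genes itself and genes per cell, rho was 0.70. For the immune subunits the most alike rows were Lrwd1 (0.55), Poglut1 (0.53), Cdk5rap1 (0.53), Mrpl18 (0.53) and Ddx54 (0.52), with partial rho between 0.48 and 0.51. Psmb8 and Psmb9 were above TPM 1 in 8 and 3 cells, so that mean level rests mostly on Psmb10. Both sets of rows are the highest of 11317. Whether such maxima exceed those of unrelated rows was not tested. The mean log2 levels of the S-phase and G2 lists had a rho of 0.56 and 0.31 with the mean 26S level, and of 0.17 and 0.09 given the number of genes.

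Some members overlap other genes in position. In the GENCODE annotation 8 members overlap another row of the table, among them Psmb5 with Mir686, Psmb7 with Nek6, Psmb9 with Tap1 and Psma2 with AW209491. Pseudogenes named after Psmb5, Psmb6 and Psmb7, 4 in all, are annotated elsewhere. How the authors' estimates divided reads that fit more than 1 gene, and whether they used strand, is not given in the sources used here, so the levels of these genes are less certain.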

How the data were processed

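Single-cell cDNA was amplified with the Discover-sc WTA Kit V2. The authors aligned reads to mm10 with HISAT2 (2.1.0) and deposited gene TPM values from StringTie (1.3.4), with no molecular identifiers named. The labels also name SAMtools (0.1.19). The series text and the paper name different sequencers. Column totals were 94.3% to 97.1% of the total to which TPM is scaled, so part of that total lies in rows not in the table. TPM keeps no sequencing depth, so depth is unknown and all intervals cover counting error over cells only. No cell was left out, and neither clustering nor a doublet caller was run.

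Levels, spread and Spearman rho were computed in Python 3.11.15 (numpy 2.4.6, pandas 2.3.3, scipy 1.17.1) on TPM or log2(TPM + 1), with functions tested on simulated data. Exact intervals are Clopper-Pearson. Gene positions and lengths came from GENCODE M21 on GRCm38, the assembly of mm10, where 11805 of 11879 rows matched. RefSeq promoter windows on GRCm38.p6 matched 40 of 48 members. The 50 cells are 1 sample, so there is no test or p-value.

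Named were the 6 catalytic genes, the highest and lowest member of each role, the 5 largest and 5 smallest SDs, members at or below TPM 1 in at least 5 cells, and the 10 and 5 most alike rows. The other 26S genes, the pathway genes and genes with 1 high cell were added after their values were seen. Members, lists and motifs were chosen with earlier results of these data known. Alternatives were the level counted as expressed, the pseudocount, rescaling without ribosomal protein rows, cells left out, partial rho and the members included. Values of some listed pathway genes are not reported here.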

Additional observations from a re-analysis of the deposited data

How the results depend on the processing

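Of 71 alternative values, 66 stayed within the spread over first title numbers or, for counts, within 1.5 times. With a pseudocount of 0.1 the constitutive minus immune difference was 9.45 in place of 7.12, and with log2 of the summed TPM it was 5.81, both by construction of the scale. Rescaling without the 83 ribosomal protein rows gave a summed 26S level of 15214 TPM and a median over members of 242 TPM, with a shift of 0.19 on the log2 scale in the median of the 7051 other rows with a median above 0. Without the cells of first title number 4, 0 cells had every immune subunit above TPM 1 in place of 2, since both carry that number. Leaving the immune subunits out of the 26S genes was chosen after seeing the data. No paired analysis was possible because the series has 1 group. Unknown depth limits every value at 0.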
